A study of Mus musculus with 97 samples.

Results

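Genes that mark the stem cells of the intestinal crypt or report Wnt signalling there, Lgr5, Olfm4, Ascl2, Smoc2, Axin2, Sox9, Rnf43, Znrf3, Tnfrsf19 and Ephb2, were followed through the jejunum of mice given non-steroidal anti-inflammatory drugs, tryptophan or both. They are 10 of the 51368 genes of the deposited table, taken by gene symbol, and all 10 passed the filter on low counts that left 17185 genes for testing. The 38 jejuna came from female C57BL/6 mice that were 11 weeks old at the end of 3 weeks of treatment. The groups were celecoxib at 550 ppm in the chow (n = 8), naproxen at 1323 ppm in the chow (n = 7), normal chow with tryptophan at 50 mg/kg injected daily in the last week (n = 8), naproxen chow with the same tryptophan injections (n = 7), and control mice on normal chow (n = 8). Mice that were not given tryptophan were injected with PBS over the same week. Naproxen inhibits both cyclooxygenase enzymes and celecoxib mainly the inducible one, and tryptophan is the amino acid precursor of serotonin and kynurenine. Each jejunum was flushed and a piece of the whole wall was sequenced after ribosomal RNA depletion, so the libraries hold epithelium, stroma, muscle and immune cells together. The series also holds 59 heart libraries from mice of 11 weeks. They came from control mice and from mice given naproxen at 1323 ppm or a higher dose, tryptophan at 50 mg/kg, or naproxen plus tryptophan. Some of the control and naproxen hearts came from male mice.

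The jejunal epithelium is renewed from stem cells at the base of each crypt, which lie between Paneth cells and divide into proliferating progenitors. Wnt proteins from Paneth cells and from the surrounding stroma act on Frizzled and Lrp receptors and stabilise beta-catenin, which then drives transcription together with TCF/LEF factors. R-spondins bind Lgr receptors and remove the ligases Rnf43 and Znrf3, which otherwise clear Frizzled from the cell surface, and Axin2, Rnf43 and Znrf3 are themselves Wnt targets that limit the pathway. In the mouse small intestine Lgr5 is known from crypt base stem cells and also from telocytes, stromal cells that lie under the epithelium of the villus tip.

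The 4 RefSeq promoters printed here, on GRCm38.p6, belong to members that the results turn on: Olfm4 and Ephb2, which varied together, Axin2, the most direct Wnt reporter of the list, and Tnfrsf19, whose printed window held the searched TCF/LEF letters. Each is the 250 bases before a transcript start, 5′ to 3′ on the strand of the gene, and capitals mark the motif letters found. The windows are chr14:80000052-80000301 on the plus strand for Olfm4, chr4:136836013-136836262 on the minus strand for Ephb2, chr11:108920099-108920348 on the plus strand for Axin2 and chr14:61037988-61038237 on the minus strand for Tnfrsf19.
Olfm4: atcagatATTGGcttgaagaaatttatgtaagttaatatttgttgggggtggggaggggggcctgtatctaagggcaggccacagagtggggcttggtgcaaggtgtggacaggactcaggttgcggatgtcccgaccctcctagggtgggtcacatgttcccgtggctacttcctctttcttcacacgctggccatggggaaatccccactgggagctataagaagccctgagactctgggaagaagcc
Ephb2: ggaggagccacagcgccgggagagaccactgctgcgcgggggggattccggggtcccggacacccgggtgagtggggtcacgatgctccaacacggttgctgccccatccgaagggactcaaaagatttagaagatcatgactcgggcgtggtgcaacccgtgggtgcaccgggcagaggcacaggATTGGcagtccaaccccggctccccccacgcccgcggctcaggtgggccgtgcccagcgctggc
Axin2: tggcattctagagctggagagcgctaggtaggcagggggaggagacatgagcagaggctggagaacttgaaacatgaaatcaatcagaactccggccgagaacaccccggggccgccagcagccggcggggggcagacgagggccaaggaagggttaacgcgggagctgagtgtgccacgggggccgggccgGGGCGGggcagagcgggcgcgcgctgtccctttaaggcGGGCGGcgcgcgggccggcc
Tnfrsf19: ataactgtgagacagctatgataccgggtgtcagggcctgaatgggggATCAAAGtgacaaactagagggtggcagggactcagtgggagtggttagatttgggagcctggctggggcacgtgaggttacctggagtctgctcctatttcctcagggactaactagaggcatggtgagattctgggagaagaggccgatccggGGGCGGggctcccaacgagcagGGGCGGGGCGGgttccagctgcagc
Of the 10 members, 6 were in the promoter table with 8 windows in all, and Lgr5, Smoc2, Sox9 and Znrf3 were not printed. Tnfrsf19 and Rnf43 each had a further window. That of Tnfrsf19, chr14:61046856-61047105 on the minus strand, held none of the searched motifs. Motifs were searched on both strands. The TCF/LEF letters CTTTGAT or ATCAAAG were in 1 of the 8 windows, against 3.21% of all 32841 promoters, and in Tnfrsf19 their first base lay 202 bases before the start. The second TCF/LEF form, CTTTGTT or AACAAAG, was in 0 of the 8 windows against 5.03% of all promoters, the RBPJ letters TTCCCAC or GTGGGAA in 0 against 5.41%, and the TATA letters TATAAA or TTTATA in 0 against 12.4%. The CCAAT box (CCAAT or ATTGG) was in 3 windows, those of Ascl2, Ephb2 and Olfm4, against 33.9% of all promoters. The GC box (GGGCGG or CCGCCC), 2 copies of which overlap in Tnfrsf19, was in 3 windows, those of Ascl2, Axin2 and Tnfrsf19, against 32.7%. These matches describe the letters of the windows and no binding was measured.

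The 10 genes lie on 6 chromosomes of GRCm38 in the GENCODE annotation, and all are protein coding. Lgr5 (ENSMUSG00000020140) spans chr10:115450311-115587780, Olfm4 (ENSMUSG00000022026) chr14:79984081-80023139, Ascl2 (ENSMUSG00000009248) chr7:142966829-142969264, Smoc2 (ENSMUSG00000023886) chr17:14279506-14404790 and Ephb2 (ENSMUSG00000028664) chr4:136647539-136835988. Axin2 (ENSMUSG00000000142) spans chr11:108920349-108950783, Sox9 (ENSMUSG00000000567) chr11:112782224-112787760, Rnf43 (ENSMUSG00000034177) chr11:87662722-87735539, Znrf3 (ENSMUSG00000041961) chr11:5276324-5444847 and Tnfrsf19 (ENSMUSG00000060548) chr14:60963875-61046490. Olfm4 shares 153 exon bases (5.17% of its exons) with the long noncoding gene Gm6999 on the same strand, so a part of its reads could be assigned either way. Axin2 shares 209 (3.80%) with the antisense gene Gm11670, which lies on the opposite strand, and the jejunum libraries were made with a stranded kit.

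Levels are given as CPM, counts per 1e6 estimated counts after scaling of the library totals. The jejunum libraries held 10.1 to 28.5 times 1e6 estimated counts (median 19.1 times 1e6), and the lowest member count in any library was 13 estimated counts, for Ascl2. To compare genes with each other, the median CPM over the 38 jejuna was divided by exon length. That length merges all annotated exons of a gene and is not that of the transcripts expressed, so the order is approximate. On that scale Olfm4, a secreted glycoprotein of the crypt base, stood far above the rest at 165 CPM per kb. Smoc2, a secreted matrix protein, was next at 9.31 CPM per kb, followed by the feedback scaffold Axin2 at 6.64, the ligase Rnf43 at 5.32 and the R-spondin receptor Lgr5 at 3.74. Ephb2, the receptor tyrosine kinase that keeps crypt cells in place, stood at 2.86 CPM per kb, the transcription factor Sox9 at 2.83, the receptor Tnfrsf19 (Troy) at 2.27, the ligase Znrf3 at 1.82 and the stem cell transcription factor Ascl2 at 0.953. Olfm4 was above Smoc2 in all 38 libraries. Neighbours in the middle of the order were not separated: Lgr5 was above Ephb2 in 23 of 38 libraries, Ephb2 above Sox9 in 21 of 38 and Sox9 above Tnfrsf19 in 26 of 38.

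**Figure D1:**
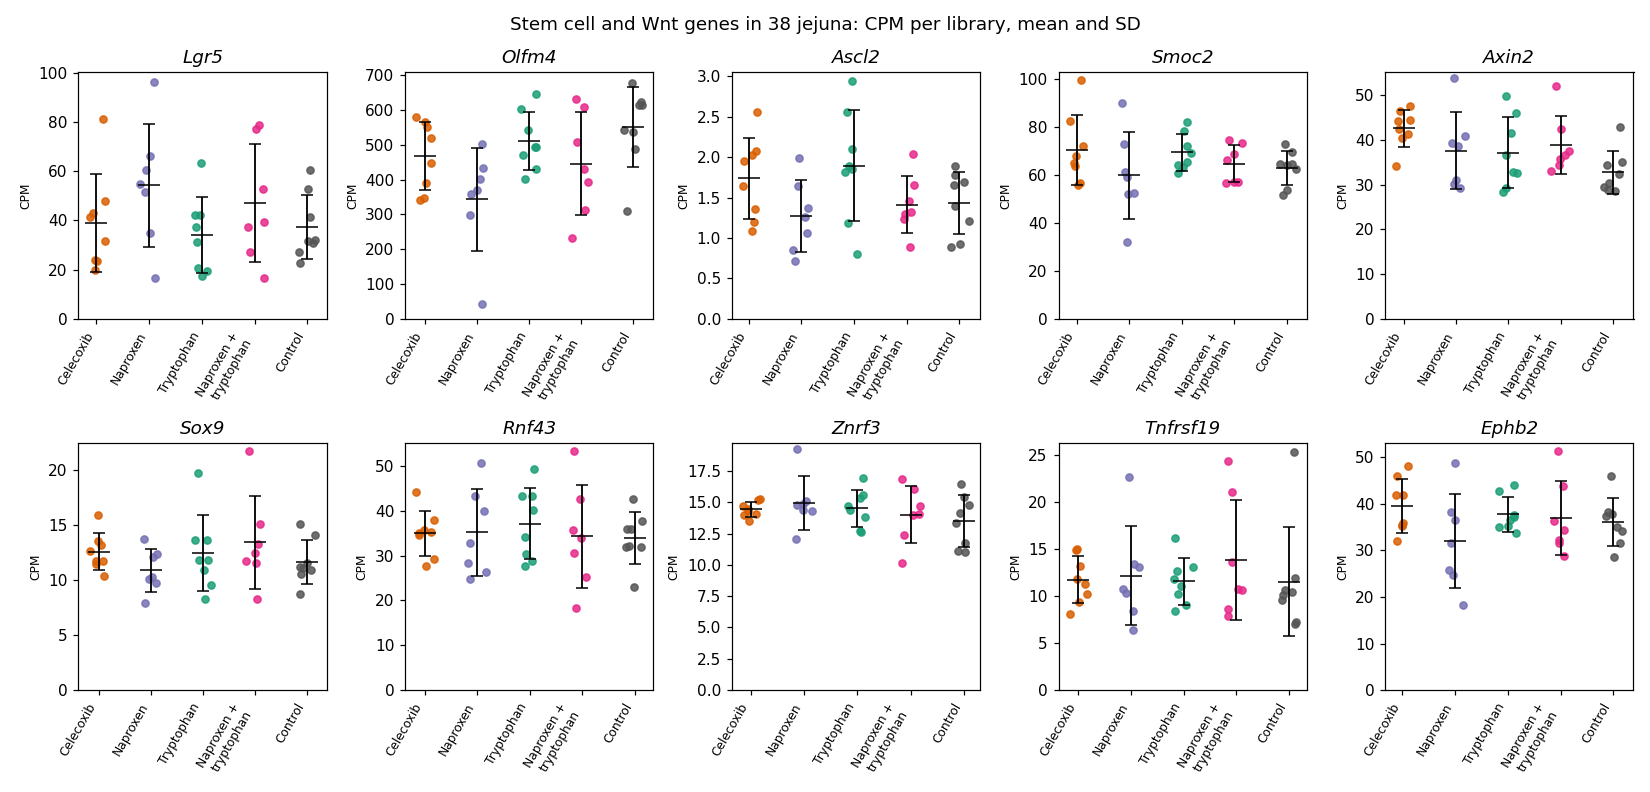
CPM of each of the 10 genes in the 38 jejunum libraries, 1 point per mouse. Celecoxib, naproxen, tryptophan and naproxen plus tryptophan stand left of control. The groups overlapped for every gene, and 1 naproxen library stood apart for Olfm4 at 41.4 CPM.

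The first question was whether any treatment moved these genes away from control. None of the 10 passed an adjusted p of 0.05 (edgeR's quasi-likelihood test with dissection batch as a block, adjusted by Benjamini-Hochberg over all 17185 genes) in any of the 7 comparisons. DESeq2 and limma's voom also called 0 of 10 in each. In edgeR without the filter on low counts, Olfm4 (log2 -0.69, adjusted p = 0.00122) and Lgr5 (log2 0.45, adjusted p = 0.0143) were called in naproxen minus control, and Lgr5 (adjusted p = 0.0124) in naproxen minus celecoxib. That fit took all genes with at least 1 count. It called 1182 genes in all in naproxen minus control and 1784 in naproxen minus celecoxib, so calls there were not particular to the members. With the filter, calls were few over the whole transcriptome too: 2 genes (0.0116%) in naproxen minus control, Ntan1 and Rbbp9, both lower with naproxen, and 0 (0%) in each of the other 6 comparisons. At an unadjusted p below 0.05, 1 of 10 members passed in celecoxib minus control (4.37% of all tested genes), 1 of 10 in naproxen minus control (16%), 2 of 10 in naproxen minus celecoxib (18.7%), and 0 of 10 in tryptophan minus control (2.65%), in naproxen plus tryptophan minus control (5.98%), in naproxen plus tryptophan minus naproxen (3.66%) and in the interaction of naproxen and tryptophan (3.4%). The numbers of members are near these shares of all genes. A missed threshold does not show equal levels, so the intervals are given: the 95% confidence intervals of all 10 members lay within log2 -1 and 1 for celecoxib, for tryptophan and for naproxen plus tryptophan, each against control, and those of 8 of 10 for naproxen against control.

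**Figure D2:**
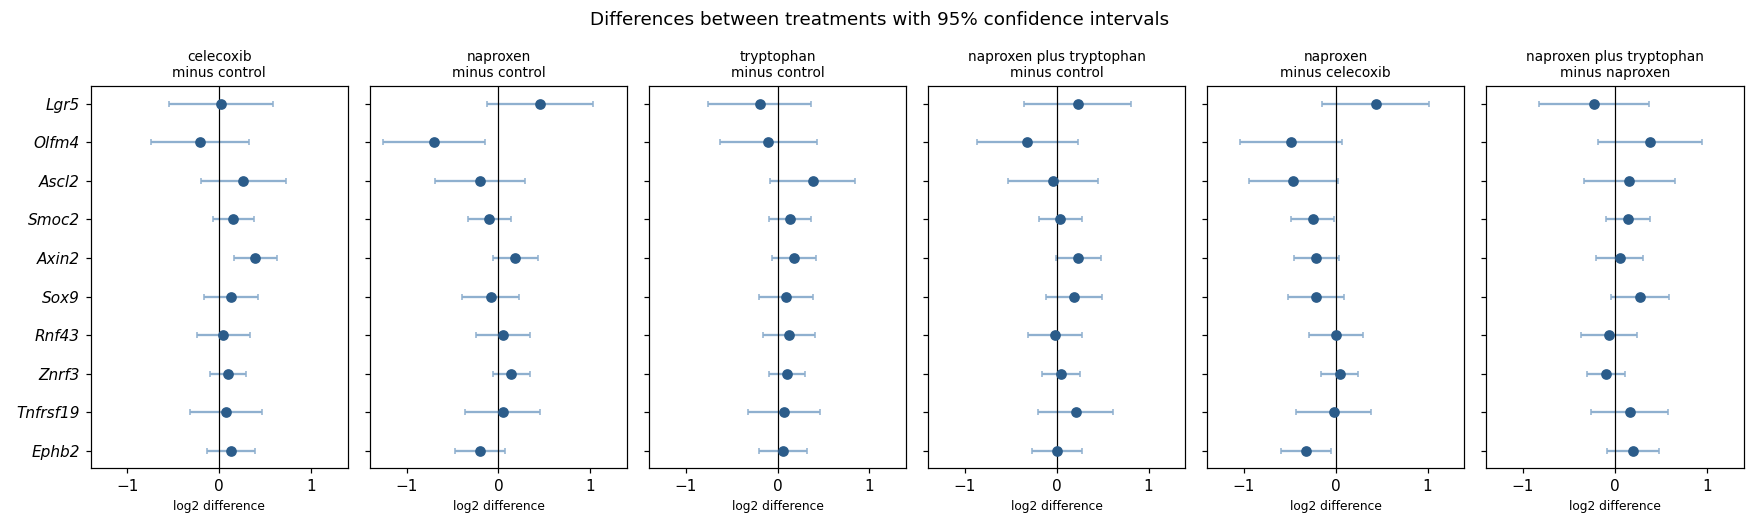
Log2 difference of each gene with its 95% confidence interval in each comparison except the interaction of naproxen and tryptophan, from the fit over 38 libraries. No interval belongs to a difference past an adjusted p of 0.05, and the widest are those of Lgr5 and Olfm4.

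With celecoxib, Axin2 was the member with the smallest unadjusted p. Axin2, which tethers the complex that degrades beta-catenin and is widely used as a Wnt reporter, had a lowest, median and highest level of 34.2, 43.3 and 47.5 CPM in celecoxib jejuna, against 28.5, 31.3 and 42.7 CPM in control jejuna. The 2 groups overlapped through the lowest celecoxib library and the highest control library. The difference was log2 0.39 (SE 0.12, 95% interval 0.15 to 0.63, unadjusted p = 0.00193, edgeR adjusted p = 0.957). Within the 4 dissection batches it was -0.01, 0.57, 0.44 and 0.54, thus higher with celecoxib in 3 of 4. Other Wnt feedback genes differed less: Rnf43 averaged 35.0 ± 5.10 CPM in celecoxib and 33.9 ± 5.71 CPM in control jejuna (SD, n = 8 each, log2 0.05), and Znrf3 14.4 ± 0.609 CPM in celecoxib and 13.5 ± 2.05 CPM in control jejuna (log2 0.10).

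Of the stem cell markers, Olfm4 alone had a negative difference with celecoxib. Lgr5 averaged 39.1 ± 19.9 CPM in celecoxib and 37.3 ± 13.1 CPM in control jejuna (log2 0.02, 95% interval -0.55 to 0.58, adjusted p = 0.995). Olfm4 averaged 468 ± 98.3 CPM in celecoxib and 550.2 ± 115 CPM in control jejuna (log2 -0.21, 95% interval -0.74 to 0.32, adjusted p = 0.960). Ascl2, a basic helix-loop-helix factor that maintains the stem cell state, averaged 1.74 ± 0.506 CPM in celecoxib and 1.43 ± 0.387 CPM in control jejuna (log2 0.26, and 0.15 without control replicate 3). For the other 4, Smoc2, Sox9, Tnfrsf19 and Ephb2, the differences were log2 0.15, 0.13, 0.07 and 0.13. In all, 9 of 10 members had a positive difference with a median of log2 0.11, against 8435 of 17185 genes tested with a median of -0.00341. Of the 10 Paneth cell markers 10 were also on the positive side (median log2 0.22), as were 14 of 16 proliferation genes (median 0.12), 6 of 6 general epithelial genes (median 0.19) and 7 of 7 smooth muscle genes (median 0.25). The 6 stroma markers (median -0.46), the 6 B cell follicle markers (median -0.89) and the 5 other immune markers (median -0.38) were all on the negative side. Also negative were 10 of 12 enterocyte markers (median -0.08) and 5 of 7 enteroendocrine markers (median -0.21), and 0 genes of these lists were called. The stroma sum ran from 692 to 2618 CPM in celecoxib jejuna (median 1222) and from 1055 to 3514 CPM in control jejuna (median 1708). The part of these cells in the members' values was not tested.

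With naproxen, Olfm4 gave the smallest unadjusted p of the 10. Its lowest, median and highest levels were 41.4, 370 and 501 CPM in naproxen jejuna, against 308, 579 and 677 CPM in control jejuna. The 2 lowest control libraries, at 308 and 486 CPM, lay within the naproxen range and the other 6 above it, while the naproxen library at 41.4 CPM lay far below all others. The difference was log2 -0.70 (SE 0.27, 95% interval -1.25 to -0.14, unadjusted p = 0.0153, edgeR adjusted p = 0.230). It was -2.31, -0.18, -0.53 and -0.52 within the 4 dissection batches, the first of which holds that library. Without it (naproxen replicate 7) the difference was log2 -0.48 (adjusted p = 0.323).

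That naproxen library was low for other crypt genes too. Its summed level of the 16 proliferation genes was 263 CPM, where the other naproxen libraries ran from 519 to 836 CPM and the control libraries from 513 to 776 CPM. The 10 Paneth markers summed to 2634 CPM in it, against 5867 to 15105 CPM in the other naproxen libraries and 5558 to 20375 CPM in control libraries. Ephb2 (18.4 CPM), Smoc2 (31.9 CPM) and Sox9 (7.95 CPM) had their lowest value of all 38 libraries there, whereas Lgr5 (54.9 CPM) and Axin2 (40.7 CPM) were above their medians over the 38. The second lowest Olfm4 level, 232 CPM in naproxen plus tryptophan replicate 7, came with the lowest Paneth sum of all, 1126 CPM. In whole tissue, fewer cells of a type and less RNA per cell cannot be told apart.

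Lgr5 lay on the other side with naproxen. Its lowest, median and highest levels were 16.7, 54.9 and 96.3 CPM in naproxen jejuna, against 22.9, 31.8 and 60.6 CPM in control jejuna, and the naproxen range covered the whole control range. The difference was log2 0.45 (SE 0.29, 95% interval -0.13 to 1.03, adjusted p = 0.418), and 0.33, 0.88, -0.19 and 0.81 within batches. Without naproxen replicate 4 it was log2 0.30. Of the remaining members, Axin2 averaged 37.5 ± 8.64 CPM in naproxen (n = 7) and 32.7 ± 4.78 CPM in control jejuna (n = 8; log2 0.18, adjusted p = 0.445), and Ephb2 32.0 ± 10.1 CPM in naproxen and 36.2 ± 5.19 CPM in control jejuna (log2 -0.20, adjusted p = 0.452). Without naproxen replicate 7 the Ephb2 value was log2 -0.10. Differences for Ascl2 (log2 -0.20), Smoc2 (-0.10), Sox9 (-0.09), Rnf43 (0.04), Tnfrsf19 (0.05) and Znrf3 (0.14) were within 1.5 standard errors of 0. The members thus split 5 to 5 in sign, with a median of log2 -0.02, beside a median of 0.02 over all genes tested.

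Markers of neighbouring crypt and villus cells lay lower with naproxen, though none of them was called. All 10 Paneth markers had a negative difference (median log2 -0.88, 7 at an unadjusted p below 0.05), among them the lysozyme Lyz1 (log2 -0.84, adjusted p = 0.279) and the lectin Itln1 (log2 -0.92, adjusted p = 0.211). Negative too were 16 of 16 proliferation genes (median -0.25), 7 of 7 goblet markers (median -0.42) and 12 of 12 enterocyte markers (median -0.32). The Paneth sum ran from 2634 to 15105 CPM in naproxen jejuna (median 7688) and from 5558 to 20375 CPM in control jejuna (median 15063). Markers of some other cells lay on the other side: 7 of 7 smooth muscle genes (median log2 0.31), 6 of 6 B cell follicle genes (median 0.91) and 4 of 6 stroma genes (median 0.26) were positive, with 0 called. Enteric neuron and glia markers were positive for 4 of 5 (median 0.29), while 4 of 5 other immune markers were negative (median -0.14). The stroma sum ran from 1091 to 4313 CPM in naproxen jejuna (median 2147) and from 1055 to 3514 CPM in control jejuna (median 1708). The part of these cells in the Olfm4 and Lgr5 values was not tested.

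With tryptophan alone, 0 of 10 members had an unadjusted p below 0.05. The largest difference was that of Ascl2, which averaged 1.89 ± 0.687 CPM in tryptophan and 1.43 ± 0.387 CPM in control jejuna (SD, n = 8 each, log2 0.38, 95% interval -0.08 to 0.85, adjusted p = 0.999). Without tryptophan replicate 6 it was log2 0.24. Lgr5 averaged 34.2 ± 15.4 CPM in tryptophan and 37.3 ± 13.1 CPM in control jejuna (log2 -0.19), and Olfm4 510.0 ± 83.0 CPM in tryptophan and 550.2 ± 115 CPM in control jejuna (log2 -0.10, 95% interval -0.63 to 0.42). Smoc2 (log2 0.13) was higher with tryptophan in 4 of 4 batches, and Axin2 (0.18) in 3 of 4. The differences of Rnf43, Znrf3, Sox9, Tnfrsf19 and Ephb2 ran from log2 0.05 to 0.12. With 8 positive and 2 negative differences the median was log2 0.10, against -0.00266 over all genes tested.

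With naproxen plus tryptophan, the Olfm4 difference from control lay between those of naproxen and of tryptophan alone, which share the control jejuna with it. Olfm4 had a lowest, median and highest level of 232, 431 and 630 CPM in naproxen plus tryptophan jejuna, against 308, 579 and 677 CPM in control jejuna (log2 -0.32, SE 0.27, 95% interval -0.87 to 0.23, adjusted p = 0.899), and was lower in 4 of 4 batches. Without naproxen plus tryptophan replicate 7 it was log2 -0.21. Axin2 averaged 38.8 ± 6.55 CPM in naproxen plus tryptophan and 32.7 ± 4.78 CPM in control jejuna (log2 0.23, unadjusted p = 0.0622, edgeR adjusted p = 0.820). Lgr5 averaged 47.1 ± 23.9 CPM in naproxen plus tryptophan and 37.3 ± 13.1 CPM in control jejuna (log2 0.23, and 0.13 without control replicate 8). Sox9 stood at log2 0.19 (0.06 without naproxen plus tryptophan replicate 4) and Tnfrsf19 at 0.21, and Ascl2, Smoc2, Rnf43, Znrf3 and Ephb2 were within log2 0.05 of control.

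Adding tryptophan to naproxen was also set directly against naproxen alone. Olfm4 averaged 445 ± 148 CPM in naproxen plus tryptophan and 343 ± 147 CPM in naproxen jejuna (SD, n = 7 each, log2 0.38, 95% interval -0.19 to 0.95, adjusted p = 0.996). Within batches this was 1.60, -0.03, 0.34 and 0.26, and the first batch holds the low naproxen library. Without that library (naproxen replicate 7) the Olfm4 difference was log2 0.17, smaller in size than those of Lgr5 (-0.25) and Sox9 (0.21) in the same fit. With all libraries, Sox9 averaged 13.4 ± 4.21 CPM in naproxen plus tryptophan and 10.9 ± 1.95 CPM in naproxen jejuna (log2 0.27, adjusted p = 0.996), and log2 0.14 without naproxen plus tryptophan replicate 4. Lgr5 stood at log2 -0.23, Ephb2 at 0.20, Tnfrsf19 at 0.16, Ascl2 at 0.16, Smoc2 at 0.14, Znrf3 at -0.09, Rnf43 at -0.06 and Axin2 at 0.05, all with an adjusted p of 0.996. Beside them, 16 of 16 proliferation genes (median log2 0.27), 10 of 10 Paneth markers (0.38) and 6 of 6 general epithelial genes (0.20) were positive. All 6 B cell follicle markers (median -4.22) and 4 of 6 stroma markers (median of the 6 -0.10) were negative, and 0 genes of these lists were called. The part of these cells in the members' values was not tested. The interaction, which asks whether tryptophan shifted a gene by another amount on naproxen than on normal chow, was log2 0.48 for Olfm4 (95% interval -0.29 to 1.26, adjusted p = 1.00), and 0.26 without naproxen replicate 7. It was log2 -0.22 for Ascl2, -0.20 for Znrf3, -0.18 for Rnf43, -0.13 for Axin2, -0.03 for Lgr5, 0.01 for Smoc2, 0.09 for Tnfrsf19, 0.14 for Ephb2 and 0.18 for Sox9.

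The 2 drugs were compared with each other, since both block cyclooxygenases but differ in selectivity. In naproxen minus celecoxib 8 of 10 members were negative, with a median of log2 -0.21 against 0.01 over all genes tested. Ephb2 had a lowest, median and highest level of 18.4, 31.6 and 48.8 CPM in naproxen jejuna, against 32.0, 38.9 and 48.1 CPM in celecoxib jejuna (log2 -0.33, SE 0.13, 95% interval -0.60 to -0.05, unadjusted p = 0.0209, edgeR adjusted p = 0.202). It was lower with naproxen in 4 of 4 batches, by -0.34, -0.26, -0.24 and -0.74, the last of which rests on 1 naproxen library. Without naproxen replicate 7, which holds the lowest Ephb2 level, the difference was log2 -0.23 (edgeR adjusted p = 0.318). Smoc2 had 31.9, 59.1 and 90.1 CPM in naproxen jejuna, against 55.8, 66.4 and 99.7 CPM in celecoxib jejuna (log2 -0.25, SE 0.12, adjusted p = 0.239), and log2 -0.16 without naproxen replicate 7. The ranges of the 2 drugs overlapped for both genes.

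Several other members had differences of similar size between the drugs. Ascl2 averaged 1.27 ± 0.449 CPM in naproxen and 1.74 ± 0.506 CPM in celecoxib jejuna (log2 -0.46, 95% interval -0.94 to 0.02, adjusted p = 0.285), lower with naproxen in 4 of 4 batches. Olfm4 stood at log2 -0.49 (adjusted p = 0.325), and at -0.27 without naproxen replicate 7. Lgr5 was on the other side at log2 0.44 (adjusted p = 0.401), Axin2 and Sox9 both stood at -0.21, and Rnf43, Tnfrsf19 and Znrf3 lay between -0.02 and 0.04. Beside them, 16 of 16 proliferation genes were lower with naproxen than with celecoxib (median log2 -0.40, 13 at an unadjusted p below 0.05), as were 10 of 10 Paneth markers (median -1.21, 8 at an unadjusted p below 0.05) and 6 of 6 general epithelial genes (median -0.30). In the other direction, 5 of 6 stroma markers were positive (median log2 0.70, 3 at an unadjusted p below 0.05), and 0 genes of these lists were called. The stroma sum ran from 1091 to 4313 CPM in naproxen jejuna (median 2147) and from 692 to 2618 CPM in celecoxib jejuna (median 1222). The summed proliferation genes ran from 263 to 836 CPM in naproxen jejuna (median 575) and from 621 to 949 CPM in celecoxib jejuna (median 704). The part of these cells in the Ephb2, Smoc2 and Lgr5 values was not tested. Leaving out naproxen replicate 6 moved the number of genes called in this comparison from 0 to 498, none of them a member.

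The rest of the Wnt pathway gave no calls either. Of the 8 Wnt ligands and secretion genes tested out of 10, the 15 R-spondins and receptors out of 16, the 14 cytoplasmic and nuclear components, the 6 secreted inhibitors out of 9 and the 12 further Wnt targets, 0 were called in any comparison. In naproxen minus control, Tcf7l2, the main TCF factor of the intestinal epithelium, stood at log2 0.40 (SE 0.14, adjusted p = 0.210), and 11 of 14 cytoplasmic and nuclear genes were positive with a median of log2 0.16. In naproxen minus celecoxib, Wnt3, the ligand made by Paneth cells, stood at log2 -0.72 (SE 0.23, adjusted p = 0.139), while 5 of the 8 ligand and secretion genes were positive with a median of 0.39. Lgr4, the R-spondin receptor found throughout the crypt, was at log2 -0.31 in naproxen minus celecoxib (adjusted p = 0.211) and 0.31 in celecoxib minus control (adjusted p = 0.957); these 2 comparisons share the celecoxib jejuna. Among 13 other stem cell genes, 5 were positive and 8 negative with naproxen against control (median log2 -0.07), with Hopx, a marker of slowly cycling cells, at log2 -0.55 (SE 0.16, adjusted p = 0.174).

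Treatment explained less of the spread of several members than dissection batch did. In a split of the log2 CPM variance, batch took 40.6% and treatment 2.64% for Tnfrsf19, 35.3% and 2.51% for Rnf43, 31.2% and 13.0% for Smoc2, and 29.2% and 8.38% for Lgr5. For Axin2 the order was the other way, with 11.4% for batch and 23.9% for treatment, and for Olfm4 5.20% and 22.9%. The median tested gene had 15.1% and 10.7%. Tnfrsf19 averaged 17.0 ± 5.72 CPM in the second batch (n = 10) and between 10.3 and 10.5 CPM in the other 3. Lgr5 was also highest in that batch, at 56.9 ± 22.5 CPM, and Rnf43 lowest, at 28.0 ± 5.58 CPM.

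The 10 genes did not vary as 1 programme between animals. With the means of treatment and batch removed, 45 pairs were correlated over the 38 libraries with 100000 permutations each and Benjamini-Hochberg adjustment over the pairs. By Pearson r, 30 of these were positive and 15 negative with a median r of 0.08. An adjusted p of 0.05 was passed by 11, 8 of them positive and 3 negative. The share of such pairs among all tested genes was not computed. Rank correlation passed another set of pairs. Olfm4 with Smoc2 passed by r (0.49, adjusted permutation p = 0.0301) but not by rho (0.30, adjusted permutation p = 0.159). Lgr5 with Ascl2 passed by rho (-0.44, adjusted permutation p = 0.0291) but not by r (-0.37, adjusted permutation p = 0.0643). The strongest of the 45 pairs was negative, Lgr5 against Rnf43 at r = -0.81 (rho = -0.78). It was between -0.84 and -0.68 within batches and -0.79 without the 2 libraries farthest from the median of Lgr5. Lgr5 and Tnfrsf19 went together (r = 0.75, rho = 0.78, 0.57 to 0.82 within batches, 0.73 without those 2 libraries). Both had a permutation p of 1e-05 for r and for rho, the smallest that this number of permutations can give (adjusted p = 0.00015 for r and 0.000225 for rho).

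**Figure D3:**
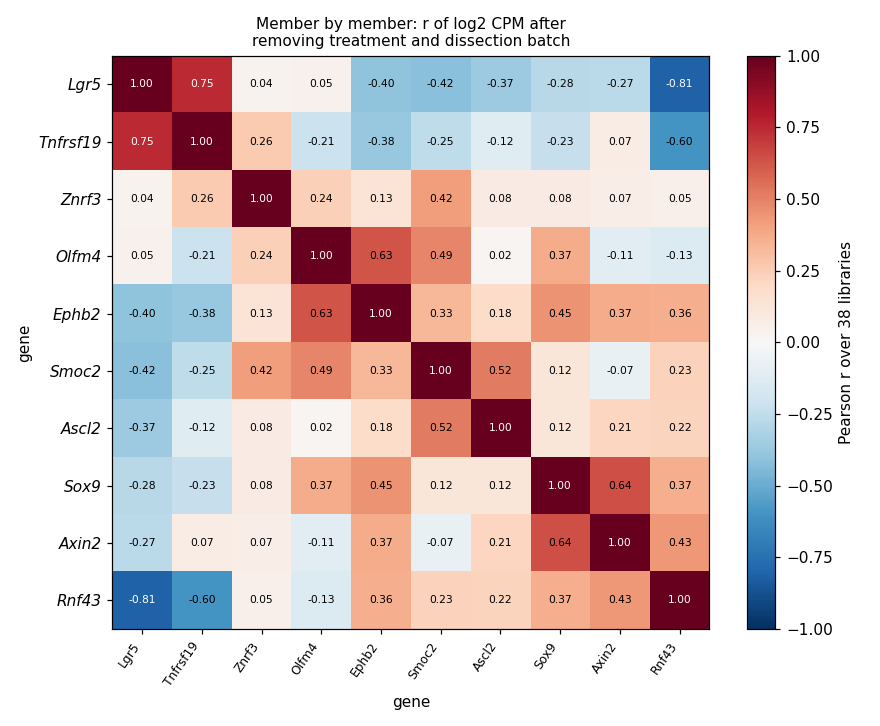
Pearson r between the 10 genes over 38 jejunum libraries, from log2 CPM with treatment and batch means removed (red positive, blue negative). Lgr5 and Tnfrsf19 pair at 0.75 and both oppose Rnf43, at -0.81 and -0.60.

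Other members went with one another. Olfm4 and Ephb2 had r = 0.63 (permutation p = 4e-05, adjusted p = 0.00036; rho = 0.53, permutation p = 0.00066, adjusted p = 0.00594), 0.14 to 0.93 within batches and 0.45 without the 2 farthest libraries. Axin2 and Sox9, which acts in stem and Paneth cells, had r = 0.64 (permutation p = 1e-05, adjusted p = 0.00015; rho = 0.58, permutation p = 0.00015, adjusted p = 0.00169), 0.47 to 0.72 within batches and 0.56 without the 2 farthest. Lgr5 against Olfm4, the 2 markers used most often for crypt base stem cells, had r = 0.05 (rho = 0.04, permutation p = 0.784 and 0.820). The batches differed for this pair, with r of 0.03, -0.86, 0.26 and -0.57 within the 4.

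**Figure D4:**
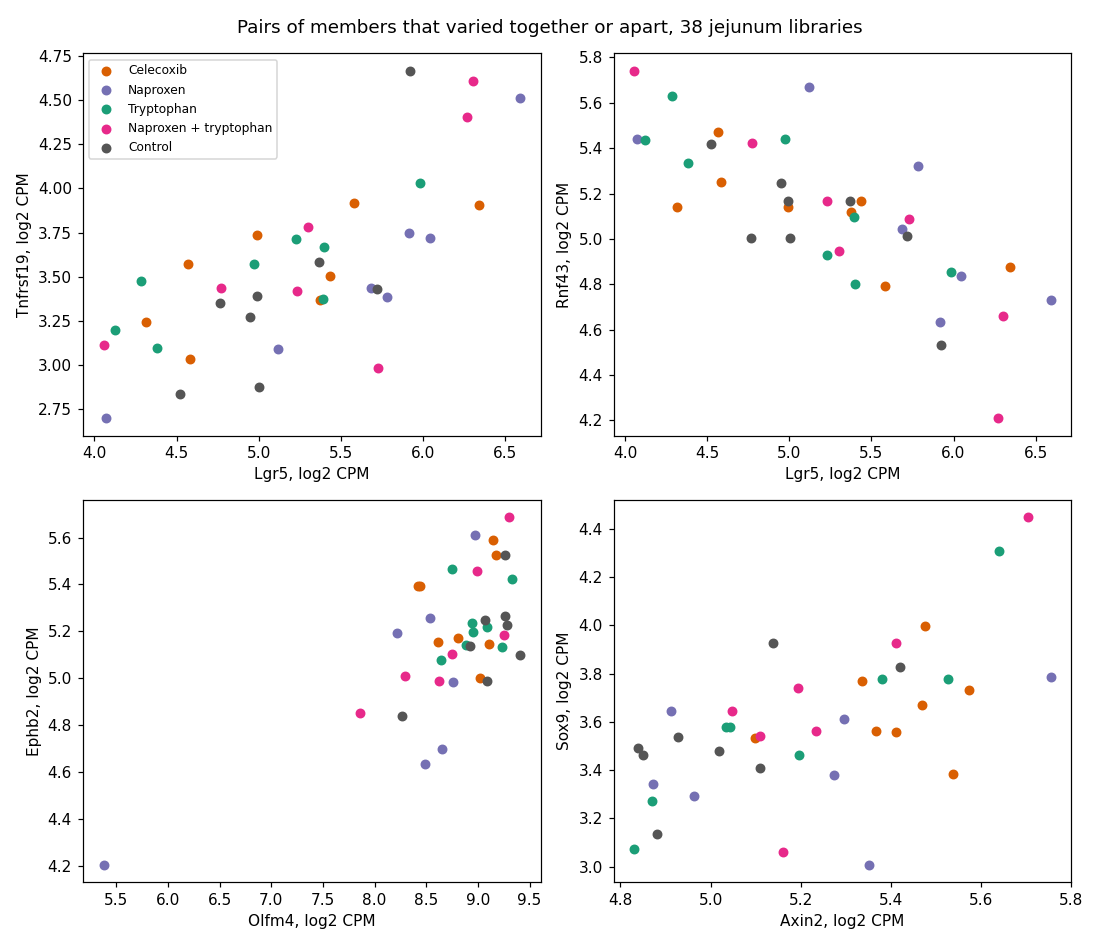
Log2 CPM of 4 pairs of genes in the 38 jejuna, coloured by treatment, without removal of treatment or batch means. Tnfrsf19 was higher and Rnf43 lower in libraries with more Lgr5, and the Olfm4 axis shows the naproxen library that stood apart.

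What each member varied with was then read from the summed levels of the gene lists, 200 relations in all, adjusted together. In these relations the 2 farthest libraries are those farthest from the median of the list sum, not of the member. Lgr5 followed the Wnt ligand and secretion genes (r = 0.94, rho = 0.94, 0.92 to 0.96 within batches, 0.92 without the 2 farthest libraries). It followed too the 9 genes listed for niche telocytes and trophocytes, stromal cells around the crypt and villus (r = 0.92, rho = 0.93, 0.83 to 0.97 within batches, 0.89 without the 2 farthest). Genes of that list such as Egf and Cd81 need not come from those cells, and abundant genes weigh most in a sum. Lgr5 also followed the secreted Wnt inhibitors (r = 0.83, rho = 0.82) and the collagen-rich stroma markers (r = 0.78, rho = 0.82), and ran against tuft (r = -0.77, rho = -0.72) and enterocyte markers (r = -0.62, rho = -0.63). Rnf43 showed the opposite pattern, at r = -0.88 (rho = -0.85) with the Wnt ligand genes, -0.89 (rho = -0.85) with the telocyte and trophocyte genes and 0.66 (rho = 0.55) with enterocyte markers. Tnfrsf19 resembled Lgr5, at r = 0.77 (rho = 0.76) with the Wnt ligand genes and -0.81 (rho = -0.82) with enterocyte markers. Every relation named in this paragraph had an adjusted permutation p of at most 0.00352.

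Olfm4 and Ephb2 followed the proliferating crypt instead. Against the 16 proliferation genes Olfm4 had r = 0.81 (rho = 0.72, 0.50 to 0.98 within batches, 0.71 without the 2 farthest libraries) and Ephb2 r = 0.83 (rho = 0.75, 0.74 to 0.96 within batches, 0.75 without the 2 farthest). Against the 13 other stem cell genes they had r = 0.70 (rho = 0.60) and 0.81 (rho = 0.73). The adjusted permutation p of these 4 relations was at most 0.00104 for r and rho. Lgr5 had r = -0.23 with both lists. The level of stroma markers ran from 692 to 5099 CPM and that of enterocyte markers from 12786 to 58332 CPM over the 38 libraries. Whether the make-up of the tissue pieces accounts for these relations was not tested.

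**Figure D5:**
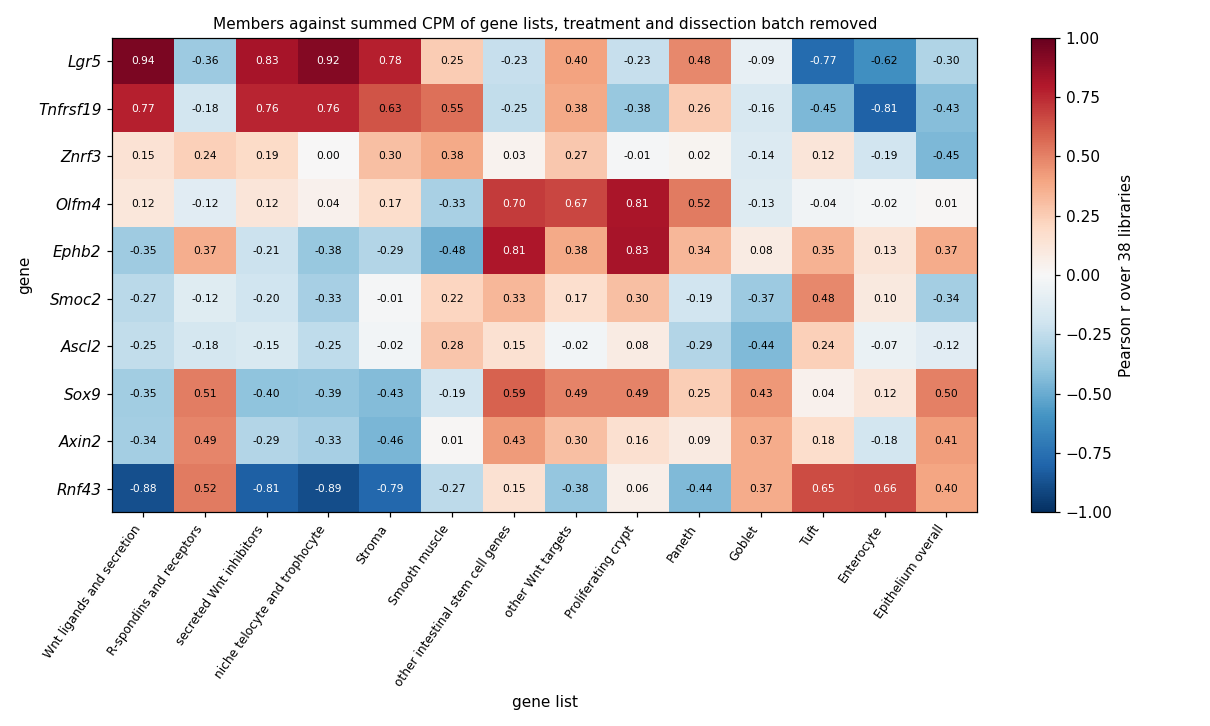
Pearson r of each gene with the summed level of each gene list over 38 jejunum libraries, with treatment and batch means removed (red positive, blue negative). Lgr5 and Tnfrsf19 are red with Wnt ligands, niche and stroma, Rnf43 is blue there, and Olfm4 and Ephb2 are red with the proliferating crypt.

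The 5 named genes with the residual pattern closest to Lgr5 over the 38 jejuna were Il1r1 (r = 0.97), Il1rl2 (0.95), Cdh13 (0.95), Prex2 (0.95) and Col6a4 (0.94). For Olfm4 they were Hmgb2 (r = 0.92), Pbk (0.92), Ccnb1 (0.91), Pycard (0.90) and Rpl39 (0.89). These were picked as the highest of all tested genes, so they carry no test.

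In the hearts, sequenced after poly-A selection and therefore not compared in level with the jejuna, only Smoc2 was abundant. Smoc2 ran from 53.4 to 96.7 CPM over the 59 hearts (median 72.5), with all treatments and both sexes pooled. Znrf3 ran from 3.77 to 7.68 CPM, Tnfrsf19 from 2.77 to 7.84 CPM, Axin2 from 1.35 to 6.47 CPM and Sox9 from 0.62 to 3.28 CPM. Lgr5 did not exceed 0.43 CPM and Ascl2 0.10 CPM. Olfm4 had a median of 0 CPM and a highest value of 1.17 CPM, in a heart of a female mouse given naproxen.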

How the data were processed

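The authors deposited estimated counts for each gene; the submitters' processing notes name Salmon 1.9.0, R 4.2.2 and GRCm38, and the step from transcripts to genes is not stated there. Of the values, 24.7% were not whole. Jejunum libraries were made with a stranded kit after ribosomal RNA depletion because RNA integrity was low, per the labels' protocols, so degraded RNA and the mix of cells in each piece can both shift levels.

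Rounded estimated counts were tested with edgeR 4.0.16 in R 4.3.3 (filterByExpr at a minimum count of 10, TMM scaling, robust quasi-likelihood F test). One fit took all 38 jejuna with 5 groups and the 4 labelled dissection batches. P-values were adjusted by Benjamini-Hochberg over 17185 genes and called at 0.05. Standard errors and 95% intervals come from that fit. Correlations used log2 CPM (prior count 2) with treatment and batch means removed, and the values within a batch used log2 CPM as such. Alternatives used limma 3.58.1 (voom), DESeq2 1.42.0, other scalings, filters and batch terms, and each library left out in turn. The test was first checked on simulated counts. The labels make each library a separate animal. No 2 libraries held identical values. In units of 1e6 estimated counts, depth was 10.1 to 28.5 per jejunum library and 26.3 to 76.4 per heart library.

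All 10 members are named in every comparison, and of each other list called genes plus 1 or 2 by value. The members and lists were chosen with earlier results of these data known. Motifs were searched in the RefSeq promoter table. The genes tested did not include Wnt9b, Wnt11, Rspo4, Sfrp2, Sfrp4, Notum, Il25 or the pancreas genes, which failed the count filter.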

Additional observations from a re-analysis of the deposited data

Results flagged for a closer look

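Over the 50 combinations of gene and group, 6 had 1 library set apart from the rest of its group by Dixon's test at 95%, where chance flags about 1 in 20. Lgr5 stood at 81.2 CPM in celecoxib replicate 1 (next 47.8 CPM), in a library with a stroma sum of 2618 CPM, the highest of the celecoxib group. Tnfrsf19 stood at 22.7 CPM in naproxen replicate 1 (next 13.4 CPM) and at 25.3 CPM in control replicate 1 (next 11.9 CPM). Both libraries are from the second dissection batch and had the lowest enterocyte sum of their group, 13211 CPM in naproxen replicate 1 and 18532 CPM in control replicate 1. Axin2 stood at 42.7 CPM in control replicate 8 (next 35.1 CPM), the library with the lowest Paneth sum of the controls (5558 CPM). Sox9 stood at 19.7 CPM in tryptophan replicate 5 (next 13.6 CPM). Znrf3 stood at 19.3 CPM in naproxen replicate 4 (next 15.1 CPM), a library with a smooth muscle sum of 4834 CPM, the highest of all 38.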

How the results depend on the processing

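Under every alternative fit other than the one without a filter on low counts, and in all 38 omissions of 1 library, 0 of the 10 members were called in the 7 comparisons. Without that filter, 2 members were called in naproxen minus control (Olfm4, adjusted p = 0.00122, and Lgr5, adjusted p = 0.0143) and 1 in naproxen minus celecoxib (Lgr5, adjusted p = 0.0124). The number of all genes called then was 319 for celecoxib, 1182 for naproxen, 253 for tryptophan and 476 for naproxen plus tryptophan, each against control, 1784 for naproxen minus celecoxib, 333 for naproxen plus tryptophan minus naproxen and 319 for the interaction. DESeq2 called 19, 139, 15, 40, 295, 34 and 31 genes in that order. With voom the counts were 0 for naproxen minus control, 1 for naproxen plus tryptophan minus control and 1 for naproxen minus celecoxib. With only the groups compared they were 1 for celecoxib and 0 for naproxen against control. Naproxen minus control gave 0 without the dissection batch and 0 with a replicate block, against 2 in the main analysis. The cause of these shifts was not tested. The replicate numbers were not taken to pair the animals: same-numbered libraries had a median correlation of deviations of 0.0724 over 73 pairs, and 9 of 38 libraries correlated best with their own number.

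Leaving out 1 library, the count of all genes called ran from 0 to 8 in naproxen minus control, from 0 to 498 in naproxen minus celecoxib (highest without naproxen replicate 6), from 0 to 1 in naproxen plus tryptophan against control and against naproxen and in tryptophan minus control, and stayed at 0 for celecoxib and the interaction.

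Differences near 0 turned sign in some fits. Under the replicate block Lgr5 was -0.00738 in celecoxib minus control and 0.0147 in the interaction. Without batch, Rnf43 was 0.0110 and Tnfrsf19 0.0516 in naproxen minus celecoxib, Rnf43 0.0147 in naproxen plus tryptophan minus control and Smoc2 -0.0280 in the interaction. With only the groups compared, Lgr5 was -0.0166 for celecoxib, Ascl2 0.0202 for naproxen plus tryptophan, Rnf43 0.00143 and Tnfrsf19 0.00107 in naproxen minus celecoxib, and Smoc2 -0.000527 in the interaction. With voom, Ascl2 was 0.0549 for naproxen plus tryptophan and Tnfrsf19 0.00332 in naproxen minus celecoxib. Ephb2 in naproxen plus tryptophan minus control was -0.00588 with RLE scaling and -0.00521 with DESeq2, and Rnf43 in naproxen minus celecoxib was 0.00535 with either and 0.0109 without a filter.

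Over the omissions of 1 library, values that crossed 0 ran as follows. Celecoxib minus control gave Lgr5 -0.173 to 0.108, Rnf43 -0.0141 to 0.136 and Tnfrsf19 -0.0273 to 0.199. Naproxen minus control gave Rnf43 -0.0419 to 0.136 and Tnfrsf19 -0.0582 to 0.199. Tryptophan minus control gave Tnfrsf19 -0.0641 to 0.204. Naproxen plus tryptophan minus control gave Ascl2 -0.162 to 0.0475, Ephb2 -0.0618 to 0.0774, Rnf43 -0.138 to 0.0707, Smoc2 -0.0310 to 0.0804 and Znrf3 -0.0264 to 0.107. Naproxen minus celecoxib gave Rnf43 -0.0846 to 0.0914, Tnfrsf19 -0.110 to 0.0763 and Znrf3 -0.0174 to 0.0938. Naproxen plus tryptophan minus naproxen gave Axin2 -0.0340 to 0.148 and Rnf43 -0.189 to 0.0289. The interaction gave Lgr5 -0.174 to 0.143, Smoc2 -0.0956 to 0.0868 and Tnfrsf19 -0.0421 to 0.218. Batch 4 holds 1 naproxen and 1 naproxen plus tryptophan library, so its within-batch values rest on single animals.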
